A study of Rattus norvegicus with 6 samples.

Results

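The genes of hepatic stellate cells and of liver fibrosis were followed in liver RNA from 3 animals of the HFD group and 3 animals of the HTG group. The 10 genes were taken by symbol from the 32930 genes of the deposited table: Col1a1, Col1a2, Col3a1, Acta2, Timp1, Tgfb1, Pdgfrb, Des, Lrat and Loxl2. Each matched a row of the table, and all 10 were among the 18455 genes with enough counts to be tested.

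Both groups ate a high-fat diet, and no animals on a normal diet were sequenced, so each value compares HTG with diet alone. HFD animals received the vehicle, 0.5% CMC-Na (sodium carboxymethyl cellulose), and HTG animals received HTG, the Huazhuo Tiaozhi granule, a herbal preparation. The series gives the intervention as 12 weeks. For its rats, the study describes 12 weeks of high-fat diet, with drugs given in 0.5% CMC-Na only during the later part. The treatment entry of the HTG samples spells the preparation HCG, and the group was taken from their titles. Age, strain, sex and dose are not given in the sample labels. The labels name rat and the build mRatBN7.2, the RNA sequencing paragraph of the study names C57BL/6 J mice, and the gene identifiers of the table are those of mouse, and the rows were therefore taken as mouse genes. Coordinates are printed as the table lists them, and their build is not given in the sources used here.

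Stellate cells lie between the sinusoidal endothelium and the hepatocytes, where in a healthy liver they store vitamin A as retinyl esters in lipid droplets. On injury, ligands such as TGF-beta and PDGF drive them to lose the droplets, take on contractile proteins and secrete fibrillar collagen, which lysyl oxidases cross-link and matrix metalloproteinases degrade. Lrat and Des are widely used to mark stellate cells, Acta2 marks their activated form, and Col1a1, Col1a2, Col3a1 and Timp1 are standard transcripts of a fibrotic response.

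The table gives an estimated count and an FPKM value (fragments scaled by transcript length and by library size) for each gene and library. Totals were between 50648778 counts (HTG library 3) and 90563477 counts (HTG library 2), and about 4 counts were taken to stand for 1 sequenced fragment. CPM is the count scaled to a common library size after TMM scaling. Values given as a series follow libraries 1, 2 and 3 of a group. Over all tested genes, libraries correlated at 0.972 to 0.980 within groups and at 0.950 to 0.980 across groups. HFD library 3, however, was the highest of the 6 libraries for 7 of the 10 genes, against 19.1% of all tested genes. Fold changes of the 10 genes and medians of the lists are therefore given with and without it. Fold changes are HTG over HFD from edgeR, with p-values adjusted over all 18455 genes. The p-values set the difference between the groups against the spread between these few animals. In whole liver, fewer stellate cells and less RNA per stellate cell cannot be told apart.

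All 10 genes were expressed at low to middling levels for these livers. In FPKM, which is per transcript length and can be compared between genes, their means over the 6 libraries ran from 0.332 for Loxl2 to 2.25 for Tgfb1, and the median tested gene stood at 1.61. The order was Tgfb1, Col3a1 (2.10), Pdgfrb (1.74), Col1a1 (1.66), Lrat (1.64), Des (1.32), Col1a2 (0.913), Timp1 (0.767), Acta2 (0.545) and Loxl2. Only Acta2 over Loxl2 held in all 6 libraries among neighbouring pairs. Tgfb1 lay above Col3a1 in 3 of 6 libraries, and the neighbouring pairs of Col1a1 with Lrat, Lrat with Des, and Timp1 with Acta2 also ranked the same way in only 3 of 6. Those neighbours were therefore not separated beyond the spread between libraries.

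**Figure D1:**
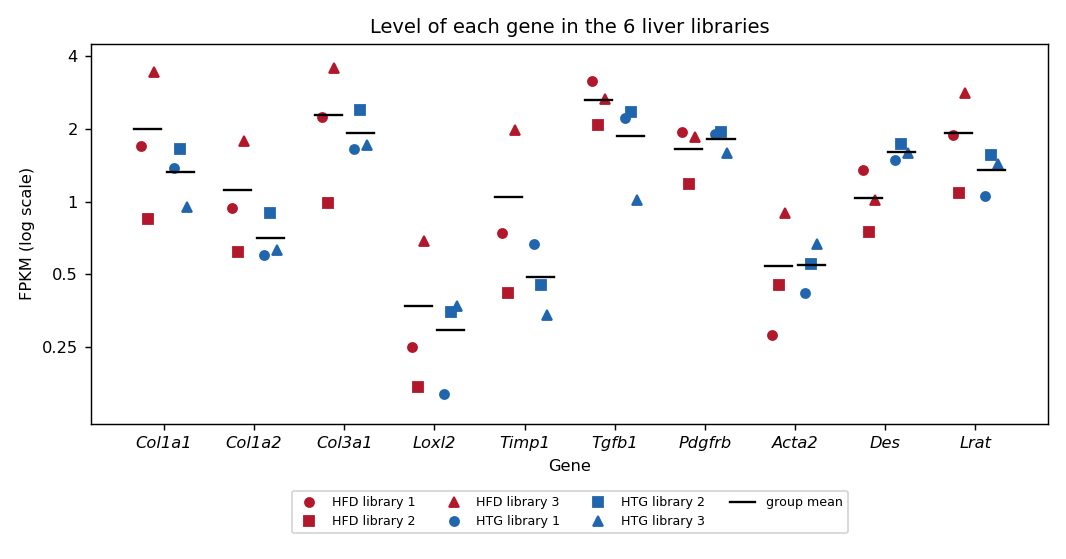
FPKM of the 10 genes (log axis) in each of the 3 HFD libraries (red) and 3 HTG libraries (blue), with a marker shape for the library number and a line at the group mean. HFD library 3 (red triangle) is the top point for the 3 collagens, Loxl2, Timp1, Acta2 and Lrat, and the groups are fully separated for Des.

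No gene of the 10 passed an adjusted p under 0.05 in edgeR, where 2 of the 18455 tested genes (0.0108%) did, 1 higher and 1 lower in HTG (0.00542% each). None passed in DESeq2 either, nor in limma on FPKM where they could be fitted. At an adjusted p under 0.1 none of the 10 was called, against 10.8% of all genes (5.41% higher and 5.43% lower in HTG). One gene, Des, had an unadjusted p under 0.05, against 24.7% of all genes (12.3% higher and 12.4% lower in HTG), and Des was also the only gene whose groups did not overlap, against 32.1% of all genes. Of the 10 log2 fold changes, 3 were above 0 and 7 below, with a median of -0.36, where the median of all tested genes was 0.03. Without HFD library 3 the median of the 10 was 0.16, so its sign rested on that library.

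Col1a1 and Col1a2 encode the chains of type I collagen, the main collagen of scar tissue, and Col3a1 encodes type III collagen, which forms fibrils with it. Col1a1 (ENSMUSG00000001506, chromosome 11, 94827050 to 94843868) had 1.70, 0.85 and 3.43 FPKM under HFD and 1.38, 1.65 and 0.95 FPKM under HTG. Its lowest and its highest library were both HFD libraries, and all 3 HTG libraries lay between them. Its fitted log2 difference was -0.53 (SE 0.42, 95% interval -1.50 to 0.43, adjusted p = 0.469). Without HFD library 3 it was 0.085 (SE 0.31), with the opposite sign.

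Col1a2 (ENSMUSG00000029661, chromosome 6, 4504814 to 4541544) had 0.94, 0.62 and 1.79 FPKM under HFD and 0.60, 0.90 and 0.63 FPKM under HTG. HFD library 3 and, narrowly, HFD library 1 lay above every HTG library, and HFD library 2 lay among them. In edgeR its log2 fold change was -0.60 (SE 0.34, interval -1.38 to 0.18, adjusted p = 0.319) with all libraries and -0.11 (SE 0.24) without HFD library 3. Col3a1 (ENSMUSG00000026043, chromosome 1, 45350698 to 45388866) had 2.25, 0.99 and 3.59 FPKM under HFD and 1.65, 2.39 and 1.72 FPKM under HTG. As for Col1a1, HFD libraries were at both ends. Its log2 fold change was -0.19 (SE 0.37, interval -1.04 to 0.67, adjusted p = 0.792), and 0.28 (SE 0.31) without HFD library 3.

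Among the HFD libraries, the 3 collagen transcripts varied less in their proportions than in their level. Among the HTG libraries they varied about as much in both. Summed, they came to 4.89, 2.46 and 8.81 FPKM under HFD and 3.63, 4.94 and 3.30 FPKM under HTG. The ratio of Col1a1 to Col1a2 in FPKM was 1.70 ± 0.289 (SD, n = 3) in HFD and 1.88 ± 0.398 in HTG, with an exact two-sided permutation p = 0.5. The ratio of Col3a1 to Col1a1 was 1.18 ± 0.139 in HFD and 1.48 ± 0.309 in HTG, with an exact two-sided permutation p = 0.2. The smallest p that 3 libraries against 3 allow is 0.1, so neither ratio could have passed 0.05. HFD library 3 had the highest collagen sum and the lowest ratio of Col3a1 to Col1a1, 1.05, and HTG library 3 had the highest ratio, 1.81.

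Loxl2 is a lysyl oxidase, which cross-links collagen, and Timp1 is a secreted inhibitor of matrix metalloproteinases. Loxl2 (ENSMUSG00000034205, chromosome 14, 69846517 to 69933283) had 93, 67 and 271 counts under HFD and 72, 182 and 110 counts under HTG. The groups overlapped, and in CPM HFD library 3 was the highest and HTG library 1 the lowest. HTG over HFD, the log2 fold change was -0.26 (SE 0.56, adjusted p = 0.807), and 0.52 (SE 0.49) without HFD library 3. The lncRNA gene Gm27177 (91 to 300 counts) and Gm37513 (5 to 34 counts), listed as TEC, a provisional gene class, overlap Loxl2 on the other strand, and since it is not stated whether the counting used strand, the split of reads between them is uncertain.

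Timp1 (ENSMUSG00000001131, X chromosome, 20736405 to 20740974) had the largest fitted difference of the 10. It had 45, 28 and 128 counts under HFD and 50, 39 and 17 counts under HTG, or between 4.25 and 32.0 fragments. Only HFD library 3 lay clear of the others, at 1.78 CPM where the other 5 libraries had 0.363 to 0.661 CPM. The fitted log2 fold change was -1.02 (SE 0.62, interval -2.45 to 0.40, adjusted p = 0.348) with all libraries and -0.21 (SE 0.60) without HFD library 3. Syn1, a neuronal gene with 50 to 237 counts here, lies on the other strand over Timp1, so these counts carry the same uncertainty as those of Loxl2.

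Tgfb1 encodes the TGF-beta ligand that induces collagen synthesis, and Pdgfrb encodes the receptor through which PDGF makes stellate cells divide. Tgfb1 (ENSMUSG00000002603, chromosome 7, 25386427 to 25404502) had 3.15, 2.07 and 2.66 FPKM under HFD and 2.22, 2.35 and 1.02 FPKM under HTG. A single HTG library, library 3, was low, and the other 5 libraries lay between 2.07 and 3.15 FPKM. The log2 fold change was -0.46 (SE 0.29, interval -1.11 to 0.20, adjusted p = 0.360). It was -0.47 without HFD library 3 and -0.19 (SE 0.23, adjusted p = 0.684) without HTG library 3, the low library.

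Pdgfrb (ENSMUSG00000024620) varied least of the 10 over the 6 libraries. It had 1.95, 1.18 and 1.85 FPKM under HFD and 1.90, 1.95 and 1.59 FPKM under HTG. HFD library 2 was low and the others lay close together. In edgeR its log2 fold change was 0.18 (SE 0.21, interval -0.30 to 0.66, adjusted p = 0.634), 0.24 without HFD library 3 and 0.014 (SE 0.19) without HFD library 2, the low library. The interval still allows a difference of 0.66 on the log2 scale with HTG the higher.

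Des encodes desmin, an intermediate filament protein of muscle and of stellate cells. Des (ENSMUSG00000026208, chromosome 1, 75336973 to 75345223) had 5.06, 3.13 and 3.87 CPM under HFD and 6.02, 6.50 and 6.85 CPM under HTG, from 209 to 635 counts. The lowest HTG value exceeded the highest HFD value, and HFD library 3 was the middle of its group. The mean was 4.02 ± 0.974 CPM (SD, n = 3) in HFD and 6.46 ± 0.418 CPM in HTG, a fitted fold of 1.60. HTG over HFD, the log2 fold change was 0.68 (SE 0.25, interval 0.11 to 1.26), with an unadjusted p of 0.0254 and an adjusted p = 0.143 in edgeR. The adjusted p lay between 0.120 and 0.323 in the alternative fits. Leaving out single libraries gave log2 fold changes of 0.53 to 0.88, and 0.65 without HFD library 3. In 5 of those 6 fits, all but the one without HFD library 1, the unadjusted p was above 0.05.

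Acta2 encodes smooth muscle alpha-actin, the contractile actin of activated stellate cells and of vessel walls. Acta2 (ENSMUSG00000035783, chromosome 19, 34218490 to 34232990) had 43, 73 and 143 counts under HFD and 78, 116 and 80 counts under HTG, or 10.75 to 35.75 fragments. Its FPKM was 0.28, 0.45 and 0.90 under HFD and 0.42, 0.55 and 0.67 under HTG, so the HTG values lay inside the HFD range. The fitted log2 fold change was 0.06 (SE 0.48, interval -1.04 to 1.16, adjusted p = 0.954). It was 0.58 without HFD library 3 and -0.26 without HFD library 1, the lowest library. The near-identical muscle actins Acta1, Actc1 and Actg2 had at most 6, 16 and 10 counts in any library.

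Lrat encodes lecithin retinol acyltransferase, which makes the retinyl esters that quiescent stellate cells store. Lrat (ENSMUSG00000028003, chromosome 3, 82799886 to 82811280) had 1.88, 1.09 and 2.82 FPKM under HFD and 1.06, 1.56 and 1.43 FPKM under HTG. HFD library 3 was again the highest and the groups overlapped. Its fitted log2 difference was -0.45 (SE 0.32, interval -1.18 to 0.27, adjusted p = 0.413) with all libraries and -0.10 (SE 0.28) without HFD library 3. Thus Lrat and Des, both used to mark stellate cells, had fitted differences of opposite sign, and the HFD library with the most collagen transcript also had the most Lrat.

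**Figure D2:**
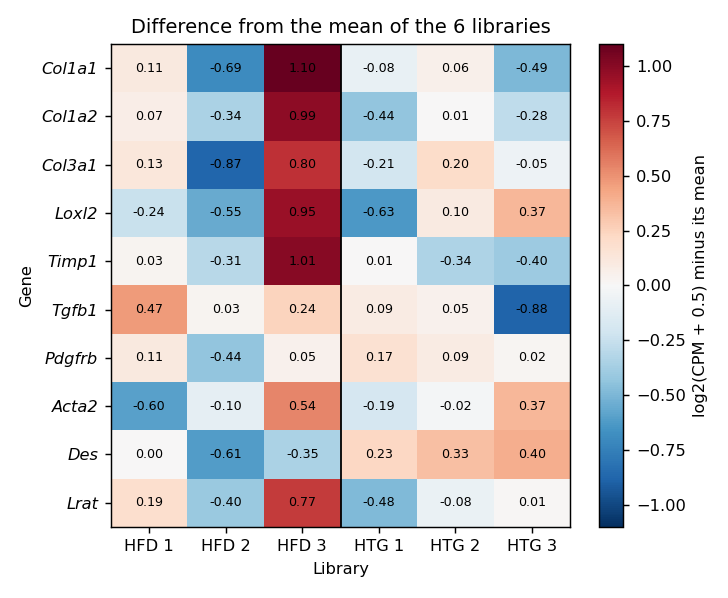
Each cell gives log2(CPM + 0.5) of a gene in a library minus the gene's mean over the 6 libraries, with red above and blue below the mean. The HFD library 3 column is red for every gene but Des and most strongly for Col1a1, and the HFD library 2 column is blue for all but Tgfb1.

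These genes varied more among the HFD animals than among the HTG animals. From lowest to highest HFD library, CPM spanned 3.67 times for Col1a1, 3.29 times for Col3a1, 2.60 times for Col1a2 and 4.24 times for Timp1. Among the HTG libraries the same genes spanned 1.49, 1.34, 1.38 and 1.77 times. On log2(CPM + 0.5), the range was wider in HFD than in HTG for 9 of the 10 genes, all but Tgfb1. It was wider in HFD for 52.7% of all tested genes. The added 0.5 narrows the range of low genes such as Timp1, at 1.31 in HFD. The median of this range over the 10 was 1.24 in HFD and 0.47 in HTG, where over all genes it was 0.50 and 0.47. Of the lists described below, 48.5% of the 130 genes around the 10 and 49.0% of the 51 cell type markers were wider in HFD. TGF-beta genes were wider in HFD for 7 of 23 and collagen processing genes for 4 of 16. Other collagens were wider in HFD for 10 of 14 (medians 1.05 and 0.63) and sinusoidal endothelial markers for 8 of 9 (medians 1.45 and 0.63). Portal fibroblast markers were wider in HFD for 7 of 7. The 12 further stellate cell markers had medians of 0.509 in HFD and 0.511 in HTG. As a group of 3 fixes a range poorly, and the 10 genes share the same libraries, no test was made of these ranges. HFD library 2 was the lowest library for 4 of the 10 genes, and for 20.7% of all tested genes. Leaving out HFD library 2 in place of library 3 gave unadjusted p-values under 0.05, with lower values in HTG, for Col1a1, Col1a2 and Lrat, at log2 fold changes of -0.88, -0.86 and -0.71. Their adjusted p-values in that fit were 0.194, 0.177 and 0.198.

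**Figure D3:**
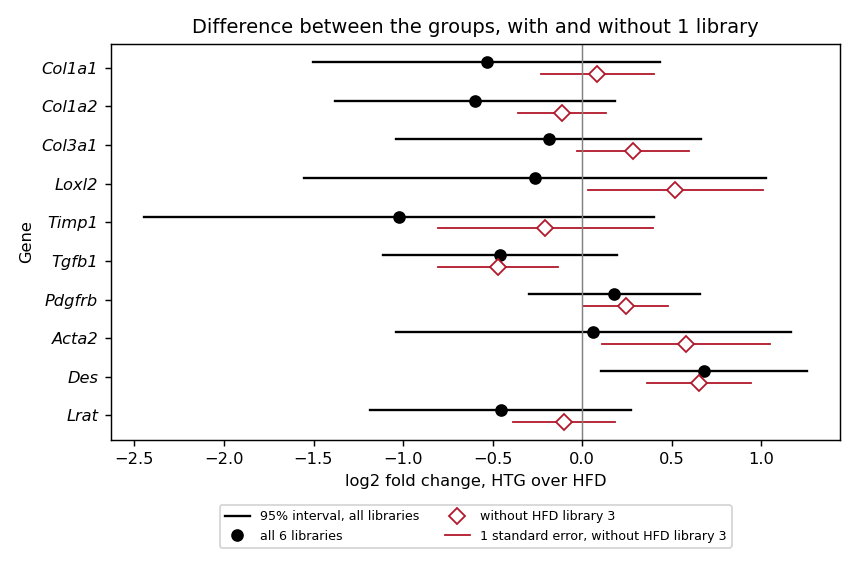
Log2 fold change of HTG over HFD for the 10 genes, with all 6 libraries (black, 95% interval) and without HFD library 3 (open diamonds, 1 standard error). The interval leaves out 0 for Des alone, and the points of Col1a1, Col3a1 and Loxl2 cross 0 when HFD library 3 is left out.

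Around these 10 genes, 137 others were grouped into 10 lists by role, and 130 of them could be tested. None passed an adjusted p under 0.05 in edgeR, whereas DESeq2 called 2 higher (6.58% of all genes) and 14 lower in HTG (8.1% of all genes) of the 123 to which it gave an adjusted p, shares of 1.63% and 11.4%. At an unadjusted p under 0.05 there were 25 genes (3 higher and 22 lower in HTG), or 19.2% of the 130 against 24.7% of all genes. Groups did not overlap for 5 genes higher in HTG (16.5% of all genes) and 27 lower in HTG (15.5% of all genes). The median log2 fold change of the 130 was -0.19, and -0.10 without HFD library 3. As the 10 genes and the lists share the same 6 libraries, the lists are no separate evidence.

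Matrix turnover was the list with the lowest median. All 14 of its tested genes had log2 fold changes below 0, as did 8933 of the 18455 tested genes, with a median of -0.80 (-0.70 without HFD library 3), and 5 had an unadjusted p under 0.05, all lower (35.7%, against 12.4% of all genes lower). Timp2, which like Timp1 inhibits metalloproteinases, had 10.6, 12.0 and 13.9 CPM under HFD and 8.07, 6.87 and 4.91 CPM under HTG, without overlap. Its log2 fold change was -0.88 (SE 0.24, adjusted p = 0.0796). Adamts1, a secreted protease of proteoglycans, had 8.18, 17.0 and 14.2 CPM against 7.46, 5.79 and 2.90 CPM, with a log2 fold change of -1.28 (SE 0.39, adjusted p = 0.0975). HTG library 3 was the lowest for both. Plau, the urokinase that activates plasminogen, had 0.94 to 1.77 FPKM under HFD and 0.28 to 0.72 FPKM under HTG, at -1.36 (SE 0.41, adjusted p = 0.0983). Among the metalloproteinases, log2 fold changes were -0.64 (SE 0.32) for Mmp2, -0.20 (SE 0.20) for Mmp14 and -0.66 (SE 0.72) for Mmp13, a collagenase. Mmp3 had no count in any library and Timp4 at most 17 counts, too few to test, and Mmp10 was not analysed here.

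In the list of 23 tested TGF-beta ligands, receptors and SMADs, 5 genes (21.7%) had an unadjusted p under 0.05, all lower in HTG. Of all genes, 24.7% passed, with 12.4% lower in HTG. The median log2 fold change of the list was -0.10 (-0.18 without HFD library 3). Smad2, a transcription factor that the receptor phosphorylates, was at 14.0 ± 1.37 CPM (SD, n = 3) in HFD and 6.02 ± 0.851 CPM in HTG, with every HTG library below every HFD library. Its log2 fold change was -1.22 (SE 0.20, adjusted p = 0.0538), and the adjusted p was under 0.05 in 7 of 17 alternative fits. Tgfbr2, the receptor chain that binds the ligand, had 33.7, 22.3 and 46.8 CPM under HFD and 14.8, 15.3 and 14.8 CPM under HTG. Its log2 fold change was -1.20 (SE 0.26, adjusted p = 0.0605) with all libraries and -0.91 without HFD library 3. The others with an unadjusted p under 0.05 were Ccn2, Smad4 and Itgav. Ccn2 had 1.69 to 2.27 FPKM under HFD and 0.29 to 1.09 FPKM under HTG, at -1.39 (SE 0.41, adjusted p = 0.0958). Smad4 had -0.70 (SE 0.22, adjusted p = 0.108) and Itgav -0.46 (SE 0.19, adjusted p = 0.194). Tgfbr1, the other chain of the receptor, had -0.08 (SE 0.14), and Smad3, the other receptor-activated SMAD of the list, 0.08 (SE 0.18). Of the 23 genes, 16 were below 0 and 7 above. With all libraries, TGF-beta genes called lower numbered 0 in the edgeR fit used here and 1 with no filter. They numbered 2 with at least 10 counts in every library. Over all genes, those fits called 1, 76 and 315 lower. DESeq2 called 3 lower of the 22 to which it gave an adjusted p, or 13.6% against 8.1% of all genes.

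**Figure D4:**
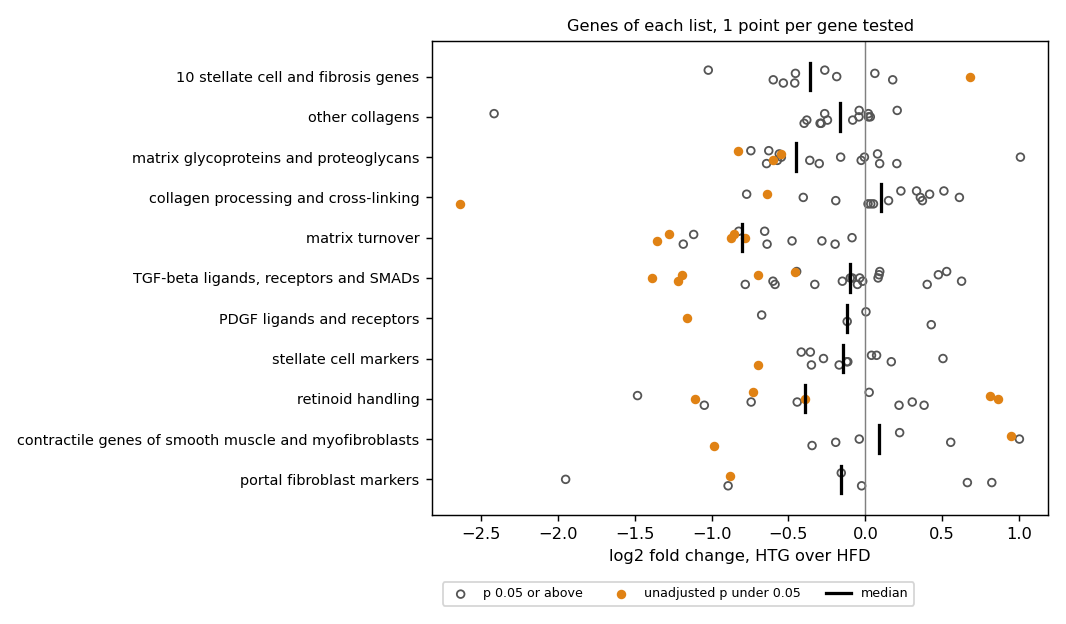
Log2 fold change of HTG over HFD for each tested gene of the 10 genes and of the 10 lists around them (1 point per gene, filled where the unadjusted p is under 0.05, bar at the list's median). All points of the matrix turnover list lie below 0, and the other collagens hold no filled point.

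In the other lists of matrix genes no gene passed the adjusted threshold in edgeR. Of 14 other collagens none had an unadjusted p under 0.05, against 24.7% of all genes. Their median log2 fold change was -0.16 (-0.03 without HFD library 3). HFD library 3 was the highest library for 11 of these 14. Col14a1, a collagen that sits on the surface of fibrils, had a log2 fold change of -0.40 (SE 0.24, adjusted p = 0.337), and Col8a1, a short-chain collagen, had 145, 71 and 122 counts under HFD and 0, 0 and 46 counts under HTG. Among 18 matrix glycoproteins and proteoglycans the median was -0.45 (-0.20 without HFD library 3). In this list 3 were lower at an unadjusted p under 0.05 (16.7%, against 12.4% of all genes lower). Lum, a fibril-binding proteoglycan, was at -0.83 (SE 0.26, adjusted p = 0.105) and Efemp1, a fibulin, at -0.60 (SE 0.22, adjusted p = 0.140). The 16 tested genes of collagen processing and cross-linking had a median of 0.10 (0.22 without HFD library 3). Of these, Plod1, a lysyl hydroxylase, had -0.64 (SE 0.21, adjusted p = 0.109), and Lox, a relative of Loxl2, was near the detection limit of 12 counts with 12, 14 and 42 counts against 8, 4 and 0 counts.

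PDGF genes other than Pdgfrb numbered 5, with a median of -0.12 (-0.17 without HFD library 3). The ligand gene Pdgfc had 350, 377 and 388 counts under HFD and 299, 158 and 84 counts under HTG, a log2 fold change of -1.16 (SE 0.36, adjusted p = 0.105), and Pdgfd had -0.67 (SE 0.48, adjusted p = 0.422). The receptor gene Pdgfrb above had a difference near 0.

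Of 12 further stellate cell markers, 1 had non-overlapping groups, with HTG the lower (8.33%, against 15.5% of all genes). All 12 were detected in every library, and their summed FPKM was 46.3, 33.9 and 40.8 under HFD and 40.3, 36.8 and 28.3 under HTG. The median log2 fold change was -0.15 (-0.08 without HFD library 3). A single gene, Reln, which encodes the secreted glycoprotein reelin, had an unadjusted p under 0.05, a share of 8.33% against 24.7% of all genes. Reln had 23.6, 24.1 and 29.1 CPM under HFD and 18.2, 17.3 and 11.8 CPM under HTG, without overlap, and a log2 fold change of -0.70 (SE 0.20, adjusted p = 0.0935), opposite in sign to Des. Colec11, a collectin of stellate cells, had -0.27 (SE 0.20), Hand2, a transcription factor of stellate cells, 0.51 (SE 0.45), and Gfap, a filament protein of stellate cells, -0.36 (SE 0.58) with at most 75 counts in a library. Markers of portal fibroblasts, the other source of liver collagen, had a median of -0.16 over 7 genes (-0.18 without HFD library 3). Fbln5 was at -0.88 (SE 0.35, adjusted p = 0.170). Fbln2, with 20, 136 and 220 counts against 26, 84 and 8 counts, was at -1.95 (SE 0.85).

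The retinoid genes, beside Lrat, lay on both sides of 0. Of 13 tested, 2 were higher and 3 lower in HTG at an unadjusted p under 0.05. That was 38.5%, against 24.7% of all genes (12.3% higher and 12.4% lower). The median was -0.39 with all libraries and 0.14 without HFD library 3. Rara, the retinoic acid receptor alpha gene, had 24.4, 18.2 and 15.7 CPM under HFD and 34.8, 39.7 and 31.7 CPM under HTG, without overlap, and a log2 fold change of 0.86 (SE 0.20, adjusted p = 0.0625). Its partner receptor Rxra had 381, 430 and 380 CPM against 275, 211 and 232 CPM, with a log2 fold change of -0.73 (SE 0.20, adjusted p = 0.0785). Both receptors are also genes of hepatocytes, so whole-liver values do not place these differences in stellate cells.

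Contractile genes gave 8 tested members with a median of 0.09 (0.33 without HFD library 3). Cald1, caldesmon, which binds actin filaments, had 119, 165 and 169 CPM under HFD and 96.6, 57.1 and 76.0 CPM under HTG, at -0.98 (SE 0.25, adjusted p = 0.0682). Tpm2, a muscle tropomyosin, had a log2 fold change of 0.95 (SE 0.41, adjusted p = 0.200) with 177, 219 and 199 counts against 344, 906 and 139 counts. In CPM, HTG library 3 lay within the HFD range. Tagln, a smooth muscle protein that commonly accompanies Acta2, had -0.35 (SE 0.50).

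Markers of the other cell types of liver were set beside the 10 genes. Of 51 tested markers none passed an adjusted p under 0.05 in edgeR, and in DESeq2 none was higher and 4 of 47 were lower (8.51% against 8.1% of all genes). At an unadjusted p under 0.05, 2 were higher and 7 lower in HTG, or 17.6% against 24.7% of all genes. Hepatocyte markers summed to between 34466 and 46434 FPKM in every library, so the markers of the labelled tissue were present throughout. The 5 mesothelial markers, from cells that cover the liver surface and share several matrix genes with fibroblasts, all had log2 fold changes below 0. Their median was -1.86, and -1.11 without HFD library 3. It was -0.995 over those with at least 10 counts in every library, which leaves out Msln, Upk3b and Lrrn4. The median of -1.86 is the value of Lrrn4, which had at most 30 counts and none in 2 libraries. Wt1 was at -0.0057 (SE 0.54). Summed, they had 1.01, 1.60 and 2.05 FPKM under HFD and 0.57, 0.45 and 0.26 FPKM under HTG, without overlap. Gpm6a, a membrane glycoprotein, had -1.99 (SE 0.47, adjusted p = 0.0625), and the defining marker Msln had 2, 159 and 167 counts against 14, 29 and 0 counts. HFD library 3, the highest in collagens, was also the highest in the mesothelial sum. The part of these cells in the matrix values was not tested.

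Sinusoidal endothelial markers, from the cells that line the space where stellate cells lie, were lowest in HFD library 2 together with Col1a1, Col3a1, Pdgfrb and Des. Their sums were 43.4, 15.8 and 32.6 FPKM under HFD and 42.7, 45.3 and 25.4 FPKM under HTG. The median log2 fold change over 9 genes was 0.20 (0.31 without HFD library 3). Stab1, a scavenger receptor of these cells, had 0.74 (SE 0.23, adjusted p = 0.105), and its relative Stab2 had 0.53 (SE 0.25, adjusted p = 0.238). Lyve1 and Cdh5 lay below 0, at -0.44 (SE 0.55) and -0.43 (SE 0.36), and Oit3 at -0.0005 (SE 0.44). Whether a share of sinusoidal cells in the sampled tissue has a part in the Des difference was not tested.

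Kupffer cell and macrophage markers mark the liver's resident phagocytes, a source of Tgfb1. Their median was -0.41 over 11 genes (-0.22 without HFD library 3). Of the 11, 10 were below 0, as were 8933 of the 18455 tested genes. Timd4, at -0.02 (SE 0.71), and Clec4f, at -0.08 (SE 0.31), were near 0, and C1qa was above it, at 0.22 (SE 0.27). Adgre1, which encodes the macrophage antigen F4/80, had 21.3, 17.1 and 27.8 CPM under HFD and 9.88, 7.26 and 5.76 CPM under HTG, at -1.53 (SE 0.26, adjusted p = 0.0538). Cd5l had -0.86 (SE 0.32, adjusted p = 0.150). The summed markers were 863, 440 and 762 FPKM against 645, 585 and 325 FPKM, and HTG library 3, the lowest of these, was also the lowest for Tgfb1. Their part in the Tgfb1 value was not tested.

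Hepatocyte markers had a median log2 fold change of -0.28 over 9 genes, 7 of them below 0, and -0.34 without HFD library 3. Cps1, a urea cycle enzyme, was at -1.62 (SE 0.30, adjusted p = 0.0568) and Hnf4a at -0.71 (SE 0.38). Bile duct markers had a median of -0.14 over 6 genes (-0.11 without HFD library 3). Sox9 was at 0.79 (SE 0.23, adjusted p = 0.0939) and Epcam at -0.95 (SE 0.37, adjusted p = 0.158). Leukocyte markers had a median of 0.06 over 6 genes (-0.05 without HFD library 3). Itgam was at -0.89 (SE 0.52) and Ptprc at 0.21 (SE 0.18). Red cell markers had a median of -0.14 over 5 genes (0.28 without HFD library 3). Alas2 was at -0.49 (SE 0.18) and Hba-a1 at 0.86 (SE 0.39).

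The genes whose pattern over the 6 libraries came nearest to that of Col1a1, Acta2 and Lrat were sought among 10017 genes with a mean of at least 5 CPM. The measure was the root mean square difference of centred log2(CPM + 0.5), where 0 is an identical pattern. With only 6 libraries it is a description. Among the nearest to Col1a1 were Serpinb9 (0.12), Ces2g (0.20), Hsd3b3 (0.22) and Dusp6 (0.22). The other collagens of the set followed soon after, Col1a2 at rank 8 (0.23) and Col3a1 at rank 13 (0.24), while Tgfb1 was at rank 1288 and Pdgfrb at rank 1138. Nearest to Acta2 were Ggct, Acnat1, Copg1, Lbr and Gnat1, at 0.11 to 0.15. Acta2 itself had 0.631 to 1.99 CPM, so the added 0.5 narrows its pattern more than theirs. Nearest to Lrat were Frmd8, Bco1, which encodes the enzyme that splits beta-carotene into retinal, Col6a2, a microfibrillar collagen, Mmp15 and Snrpn, at 0.08 to 0.12.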

How the data were processed

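Poly(A) RNA from the livers of 3 HFD and 3 HTG animals was sequenced in strand-marked paired-end libraries. The authors deposited an estimated count and an FPKM value per gene and library. The submitters' processing notes name HISAT2, StringTie and SAMtools with no role or version, and whether counting used strand is not stated. The deposited counts were used as whole numbers. Low counts piled up at 4 (6450 values, against 2549 at 3 and 1757 at 5) and at 8 (3333, against 1521 at 7 and 1170 at 9). Values of 1 (5104) and 2 (4229) were also common, so the scale is approximate. Taking 1 fragment as 4 counts gives 12662194 to 22640869 fragments per library and a limit of 3 fragments (12 counts) for an empty gene. These limits cover counting error only.

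The test was edgeR 4.0.16 (TMM, filterByExpr, glmQLFit and glmQLFTest, group as the only term) in R 4.3.3, with Benjamini-Hochberg adjustment over all genes tested and 0.05 as the threshold. DESeq2 1.42.0 and limma 3.58.1 on log2(FPKM + 0.1) or log2(FPKM + 1), with a minimum mean FPKM of 1 or no minimum, were alternatives, with other filters and scalings, the replicate number as a block, counts divided by 4 and each library left out. The scripts were tested on simulated counts. The 10 genes and the lists were chosen with earlier results of these data known. From each list, genes called at an adjusted p under 0.05 or, with none, the 2 with the smallest unadjusted p were to be named. Mmp2, Mmp3, Mmp13, Mmp14, Plau, Timp4, Tgfbr1, Smad3, Ccn2, Smad4 and Itgav were named after their values were seen. So were Gfap, Hand2, Tagln, Lyve1, Cdh5, Oit3, Wt1, Lrrn4, Upk3b, Timd4, Clec4f and C1qa. Levels were compared between genes in FPKM only. Of the genes nearest in pattern to Col1a1, 1 is not reported here.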

Additional observations from a re-analysis of the deposited data

How the results depend on the processing

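Every alternative left the 10 genes without a call at an adjusted p under 0.05. Leaving out single libraries moved their median log2 fold change between -0.58 and 0.16 (0.16 without HFD library 3) and the number with an unadjusted p under 0.05 between 0 and 1 higher and between 0 and 3 lower (3 without HFD library 2). Signs turned for Acta2 (-0.26, -0.024 and -0.17 without HFD library 1, HFD library 2 and HTG library 3, and up to 0.58 without HFD library 3) and, without HFD library 3, for Col1a1 (0.085), Col3a1 (0.28) and Loxl2 (0.52), which without HFD library 2 had -0.88, -0.53 and -0.60. Acta2, Col1a2, Timp1 and Loxl2 fell under the FPKM minimum and had no value in the filtered limma fits. The causes were not tested.

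Counts of calls over all genes, 1 higher and 1 lower, depended on the fit. They were 974 and 1199 in DESeq2, 86 and 76 with no filter, 369 and 315 with at least 10 counts in every library, 10 and 4 without mitochondrial genes, 459 and 363 with counts divided by 4, 326 and 552 in limma with a pseudocount of 0.1, 329 and 555 with 1, and 0 and 0 without its filter. Without single libraries they ran from 0 to 234 and from 0 to 419. For the lists around the 10 genes, calls higher and lower were 2 and 14 in DESeq2, 0 and 1 with no filter, 1 and 2 with the count minimum or the division by 4, 0 and 3 in both filtered limma fits, and 0 to 4 lower without single libraries, with a median from -0.36 (without HFD library 2) to -0.10 (without HFD library 3). Cell type markers called lower were 4 in DESeq2, 1 with no filter, 3 with the count minimum or the division by 4, 2 in both filtered limma fits, and 0 to 2 without single libraries. The replicate block gave 0 and 0 over all genes and changed no call of the 10 genes. Same-numbered libraries share only a number (correlations of their deviations -0.13, -0.11 and 0.19). With 3 animals a group the intervals are wide, and a difference of a size inside an interval that holds 0 cannot be told from none.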
